A study of Homo sapiens with 4 samples.

Results

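The 7 genes studied here mark Wnt signalling and the intestinal stem cell and were examined for ATF3 binding in SW480 cells: AXIN2, LGR5, ASCL2, CCND1, TCF7L2, RNF43 and SOX9. Peaks of the 4 deposited lists that shared at least 1 bp were merged, and every merged region that overlapped a gene or the 20 kb on either side of it (hg19) was taken. This gave 38 of the 44826 regions on chromosomes 1 to 22 and X. SW480 is an established line from a colorectal adenocarcinoma. The cells were kept for 24 h in cystine-restricted medium (libraries CR1 and CR2) or in full medium (libraries FM1 and FM2), and ATF3 was mapped by CUT&Tag, in which an antibody directs a transposase to cut and tag the DNA around the bound protein. All 4 libraries were made with the same ATF3 antibody, no library without it was used here, and the labels do not say whether the 2 libraries of a medium came from separate cultures, so p-values measure only the spread between these libraries, which may be technical.

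In the Wnt pathway, beta-catenin that escapes destruction enters the nucleus, joins TCF and LEF factors on DNA and switches on a set of target genes. In the intestine this keeps the stem cells at the crypt base dividing, and colorectal cancers, SW480 among them, commonly carry APC mutations that leave the pathway on. TCF7L2 encodes the main DNA-binding partner of beta-catenin in the colon. AXIN2 and RNF43 are targets that feed back on the pathway: AXIN2 is a scaffold of the complex that destroys beta-catenin, and RNF43 is a ubiquitin ligase that removes Frizzled receptors from the cell surface. LGR5, an R-spondin receptor, ASCL2, a bHLH transcription factor, and SOX9, an HMG-box transcription factor, mark stem and progenitor cells of the crypt. CCND1 encodes cyclin D1, which drives cells through G1. ATF3 is a stress-induced bZIP factor that binds AP-1 and CRE-like sites.

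RefSeq promoter windows, which run from 250 bases before to 50 after a transcription start, were found for 2 of the 7 genes, and 2 of these windows are shown because a region touches them. The first belongs to an inner start of RNF43, 14813 bp from the 5′ end of the gene (GRCh38.p14, chr17:58402672-58402971, minus strand). The second belongs to the outermost start of TCF7L2 (GRCh38.p14, chr10:112949997-112950296, plus strand). Capitals mark matches to the motifs searched.

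RNF43 inner start: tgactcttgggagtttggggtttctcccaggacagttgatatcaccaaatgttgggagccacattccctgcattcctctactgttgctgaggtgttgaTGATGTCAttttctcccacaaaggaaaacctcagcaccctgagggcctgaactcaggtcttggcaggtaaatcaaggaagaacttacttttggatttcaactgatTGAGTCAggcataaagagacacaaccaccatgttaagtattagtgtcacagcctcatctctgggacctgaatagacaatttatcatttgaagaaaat

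TCF7L2 outer start: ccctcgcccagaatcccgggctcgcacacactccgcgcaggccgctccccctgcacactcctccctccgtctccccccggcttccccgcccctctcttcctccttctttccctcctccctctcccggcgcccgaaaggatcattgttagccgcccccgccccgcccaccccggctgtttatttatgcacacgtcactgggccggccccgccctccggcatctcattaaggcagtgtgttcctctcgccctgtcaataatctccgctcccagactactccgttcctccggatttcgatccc

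The windows were searched on both strands for TGANTCA (AP-1), TGACGTCA (CRE), TGATGNAA (ATF4 composite), ATCAAAG and TTCAAAG (TCF), and for TGATGTCA, a CRE-like variant that was added after the window had been seen. The RNF43 window held TGATGTCA at bases 99 to 106 and TGAGTCA, an AP-1 match, at bases 204 to 210, counted from its 5′ end. These motifs do not overlap there. Of 35116 RefSeq promoter windows of the same length, 2.61% held TGATGTCA, 7.71% TGANTCA, 1.85% TGACGTCA, 3.62% TGATGNAA, 2.62% ATCAAAG and 4.43% TTCAAAG. None of the 6 motifs was in the TCF7L2 window shown. The peaks are on hg19 and these windows on GRCh38, so positions were compared only as distances from the ends of each gene. By that measure the strongest RNF43 region covers the window of the inner start, with summits in all 4 libraries at bases 87 to 98 of the window when counted from the 3′ end of the gene, and at bases 123 to 134 when counted from the 5′ end. The TCF7L2 region reaches into the outer window, but its summit is 420 bp upstream of the gene.

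The genes differed widely in how much ATF3 signal they held. RNF43 had 11 regions, AXIN2 9, TCF7L2 8, CCND1 6, SOX9 3, ASCL2 1 and LGR5 none. Per 100 kb of window these are 12.3 regions at AXIN2, 11.2 at CCND1, 10.5 at RNF43, 6.61 at SOX9, 3.11 at TCF7L2, 2.36 at ASCL2 and 0 at LGR5, against 1.48 over the whole genome. Both genes that mark the stem cell most narrowly, LGR5 and ASCL2, thus had no region shared by 2 libraries. Windows of the lengths of these 2 were also laid end to end along every chromosome, assembly gaps included. At the length of LGR5 38.6% held no region, and at that of ASCL2 67.4% held none. Few or no regions are thus not rare in windows of these lengths. For the other genes, windows of the same length were laid out in the same way. At least as many regions were held by 0.53% of them for AXIN2, 0.87% for RNF43 and 1.47% for CCND1. For SOX9 the share was 8.53% and for TCF7L2 17.9%. RefSeq places other genes in some of the gene windows, and a peak cannot be assigned to one gene by position. TSPOAP1-AS1 overlaps RNF43, SUPT4H1 and HSF5 flank it, LTO1 and LOC124902704 lie near CCND1, and SOX9-AS1 lies near SOX9.

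**Figure D1:**
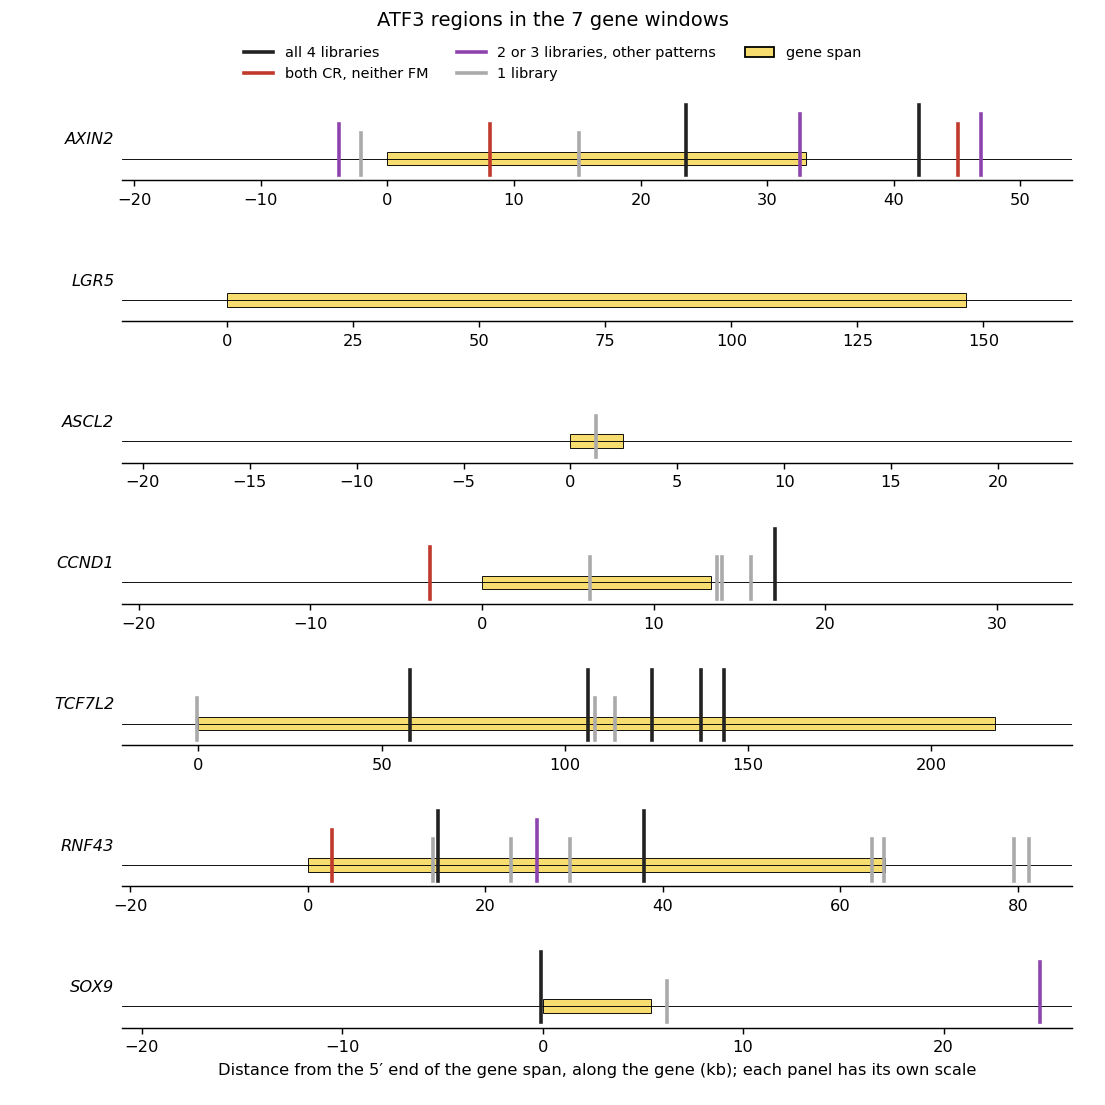
Position of the 38 merged ATF3 regions along the 7 genes, as the distance in kb of the highest summit from the 5′ end of the gene span, with one panel and scale per gene. Lines are taller the more libraries list the region, and their colour gives the pattern of libraries. LGR5 has none and TCF7L2 has 5 in all 4 libraries.

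Peaks in the 7 windows were more numerous in cystine-restricted cells, with 32 and 23 peaks in CR1 and CR2, against 17 and 20 in FM1 and FM2. The means were 27.5 ± 6.4 and 18.5 ± 2.1 (SD, n = 2 each), a ratio of 1.49. Neither medium's counts reached into the other's. An exact permutation test, two-sided, gave p = 0.33, which 2 against 2 libraries cannot go below, and the ratio over all peaks was 1.73.

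Of the 38 regions, 11 had a peak in all 4 libraries (over the genome, 23.0% did), 4 were gained, that is, listed in CR1 and CR2 and in neither FM1 nor FM2, and none was lost, the reverse pattern. Over the genome 12.7% of regions were gained and 0.386% lost, so a count of 4 is near the background. Of the 17 regions found in both cystine-restricted libraries the gained ones made up 23.5%, against 27.6% over the genome. None of the 13 regions found in both full-medium libraries was lost, and over the genome 1.56% were. A further 5 regions were in 2 or 3 libraries in other patterns. The remaining 18 were in 1 library, as were 46.4% of all regions: 10 in CR1, 4 in CR2, none in FM1 and 4 in FM2. Of the 20779 such regions of the genome, 9770 were in CR1, 6543 in CR2, 1827 in FM1 and 2639 in FM2. A missing peak says that the signal fell short of what the peak caller asked for, and does not measure an absence of binding.

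**Figure D2:**
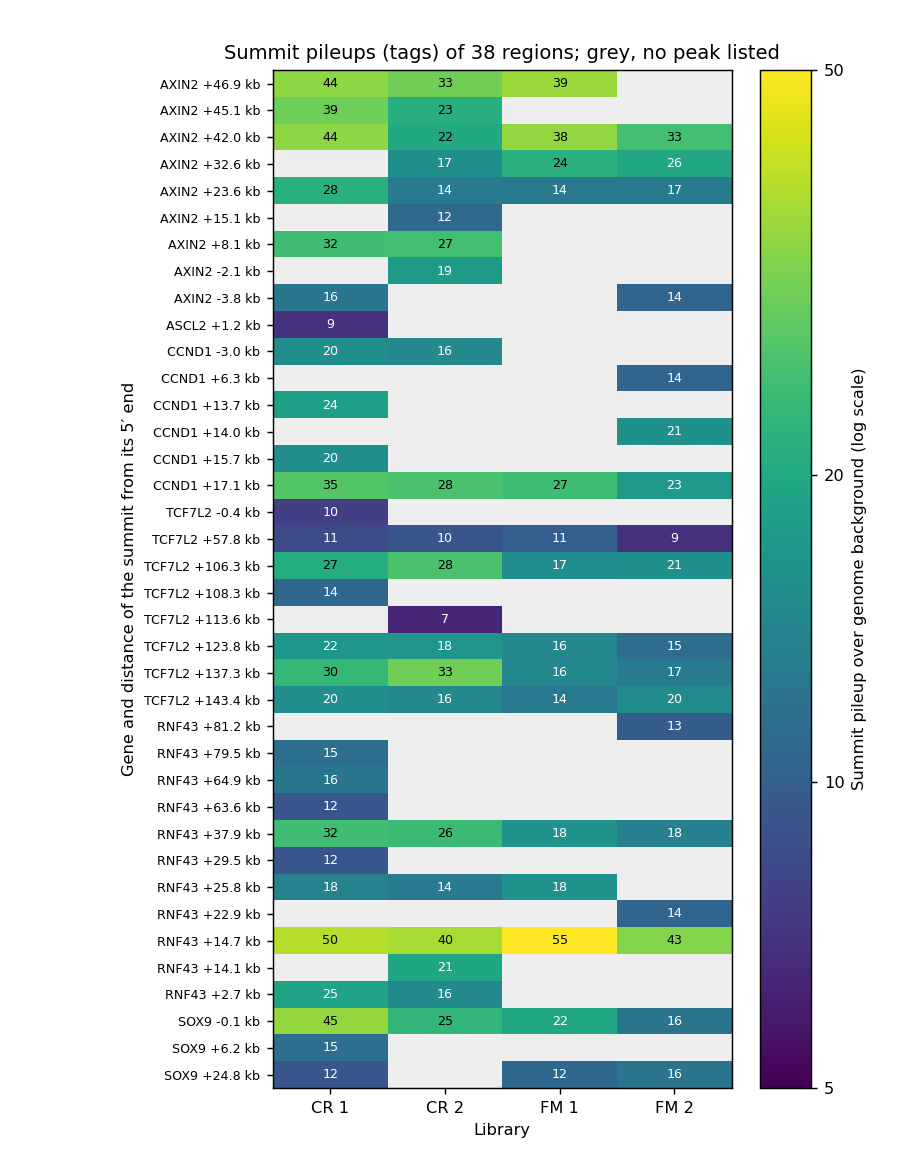
Summit pileup in tags (number in each cell) of the 38 regions in the 4 libraries, cystine-restricted (CR) first, coloured by the pileup over the genome background of the library on a log scale. Grey cells have no listed peak. The highest pileup, 55 tags in FM1, is at RNF43, 14.7 kb from its 5′ end.

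The lists held 33838 peaks in CR1 and 29607 in CR2, against 17447 in FM1 and 19132 in FM2. Signal is given below as the summit pileup, the number of tags at the top of a peak, which was worked out from the authors' fold enrichment and −log10 p, and as that pileup divided by the genome background of its library. The genome background, which scales with how many tags a library holds, was 1.298 tags in CR1 and 1.08 in CR2, against 1.11 in FM1 and 1.32 in FM2. Levels over background were compared between media with limma at the common regions, those listed in every library, fitted over all 10331 of the genome with Benjamini-Hochberg adjustment. At these 10331 regions the median log2 change, cystine-restricted over full medium, was 0.53 (interquartile range 0.29 to 0.78), so changes at single regions are also given relative to this shift.

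Of the 11 regions tested at the 7 genes, 3 (27.3%) were higher under cystine restriction at an adjusted p under 0.05 by limma, against 43.2% of all common regions. None was lower by limma at an adjusted p under 0.05, and over the genome 0.407% were. At an unadjusted p under 0.05 by limma none was lower either, and over the genome 62 of the 10331 were. The median log2 change of the 11 was 0.39, below the 0.53 of all common regions, and single values ran between −0.16 and 0.96. In 7 of the 11 both cystine-restricted libraries were above both full-medium libraries, a pattern found in 72.8% of all common regions, and in none were both below both (2.38% of all). Neither share is above that of the genome. The highest summits of the 4 libraries spread over a median of 282 bp at the 11 regions and 124 bp at all common regions, and lay within 20 bp at 2 of the 11 and at 15.3% of all. With the log2 pileups of each library centred on their median over the common regions, none of the 11 was higher and 2 were lower by limma, where 4.96% and 4.28% of all common regions were.

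**Figure D3:**
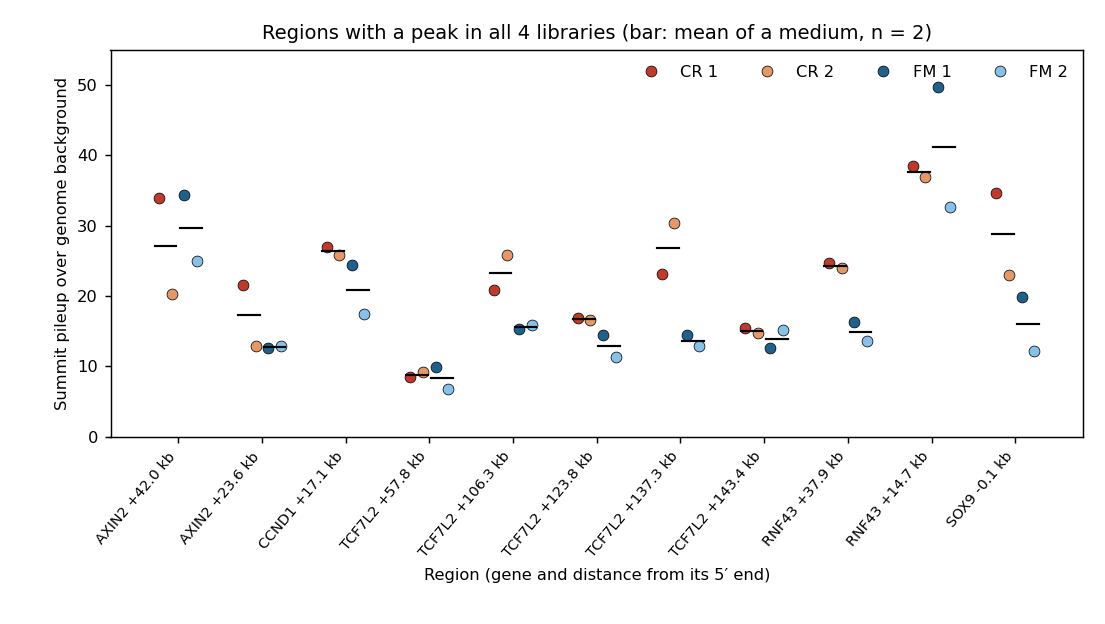
Summit pileup over genome background at the 11 common regions, those listed in every library. Points are single libraries, cystine-restricted (CR) left of full medium (FM), and bars are the means of a medium (n = 2). The libraries of the media do not overlap at the TCF7L2 region 137.3 kb from the 5′ end and overlap at the RNF43 region at 14.7 kb.

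TCF7L2 held 5 of the 11 common regions, and 7 of its 8 regions lay inside the gene. All 5 were between 57.8 and 143.4 kb from the 5′ end. The region at 137.3 kb (hg19 chr10:114846743-114847687) rose most among the 11. Its summit pileups were 30 and 33 tags in CR1 and CR2, against 16 and 17 tags in FM1 and FM2. Over the genome background these are 26.8 ± 5.2 under cystine restriction and 13.7 ± 1.1 in full medium (SD, n = 2 each). Each cystine-restricted library stood well above each full-medium library. The log2 change was 0.96 (SE 0.28, limma adjusted p = 0.0054), which is 0.43 above the shift of all common regions. Without CR2 the change was 0.76 with a limma adjusted p of 0.109, and over all alternatives the adjusted p ran between 0.0023 and 0.404. The authors' fold enrichment of this region was 7.69 and 9.34 under cystine restriction, against 4.96 and 5.81 in full medium. The call was lost with fold enrichment in place of the pileup (0.66, limma adjusted p = 0.066) and with summed peaks (0.96, limma adjusted p = 0.057). It was also lost with each library centred on its own median (0.39, limma adjusted p = 0.404).

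The region at 106.3 kb (hg19 chr10:114815990-114816835) had 27 and 28 tags in CR1 and CR2, against 17 and 21 tags in FM1 and FM2. Over background the media did not overlap, at 23.3 ± 3.6 and 15.6 ± 0.40 (SD, n = 2 each), but the log2 change of 0.57 (SE 0.27) did not pass, with a limma adjusted p of 0.086. The summits fell on either of a pair of places about 0.3 kb apart, at 106269 and 106581 bp in CR1, 106299 bp in CR2, 106300 bp in FM1 and 106579 bp in FM2.

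The region at 123.8 kb (hg19 chr10:114833265-114834139) had 22 and 18 tags in cystine-restricted and 16 and 15 tags in full-medium libraries, a log2 change of 0.39 (SE 0.29, limma adjusted p = 0.27). The region at 143.4 kb (hg19 chr10:114852641-114853756) had 20 and 16 tags in cystine-restricted and 14 and 20 tags in full-medium libraries. The region at 57.8 kb (hg19 chr10:114766886-114767864) was the weakest of the 11, with 11 and 10 tags in cystine-restricted and 11 and 9 tags in full-medium libraries. Its summits spread over 569 bp. The CR2 peak there shares no base with the FM1 or the FM2 peak, and only the CR1 peak joins them, so its change compares partly different places. At the regions at 143.4 and 57.8 kb the media overlapped, and the log2 changes of 0.12 and 0.10 were smaller than their SE of 0.29 and 0.30. The neighbours at 137.3 and 143.4 kb thus had log2 changes of 0.96 and 0.12, and the difference between regions was not tested. The other 3 regions of TCF7L2 were each in 1 cystine-restricted library with 7 to 14 tags. One of them is the region at the promoter shown above, with 10 tags in CR1.

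AXIN2 had regions on both sides of the gene and within it. The common region at 42.0 kb, which is 9.0 kb past the 3′ end (hg19 chr17:63515499-63515882), had 44 and 22 tags in CR1 and CR2, against 38 and 33 tags in FM1 and FM2. The lowest value over background was in CR2 and the highest in FM1, and the media overlapped, at 27.1 ± 9.6 under cystine restriction and 29.7 ± 6.6 in full medium (SD, n = 2 each). The log2 change was −0.16 (SE 0.25, limma adjusted p = 0.61), 0.69 below the shift of all common regions, where 3.82% of them lie at or below it. With the log2 pileups of each library centred on their own median, which moves every change by slightly more than that shift, it passed as lower, −0.73 with a limma adjusted p of 0.035, but it was 0.21 without CR2 and 0.067 without FM1, before centring.

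The common region inside AXIN2 at 23.6 kb (hg19 chr17:63533511-63534729) had 28 and 14 tags in CR1 and CR2, against 14 and 17 tags in FM1 and FM2. CR1 stood apart at 21.6 times background, while the other 3 libraries were at 12.7 to 12.9 times. The 4 summits spread over 497 bp. The log2 change was 0.39 (SE 0.30, limma adjusted p = 0.28).

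AXIN2 had 2 gained regions. The one inside the gene, 8.1 kb from its 5′ end (hg19 chr17:63549489-63549902), had 32 and 27 tags in CR1 and CR2, with summits 12 bp apart. These are 24.7 and 24.9 times the genome background, but the local background there was itself 5.46 and 5.36 times. The fold enrichments were 4.08 and 4.11, below the medians of all peaks of 5.24 in CR1 and 5.28 in CR2. The other, 12.1 kb past the 3′ end (hg19 chr17:63512213-63512886), had 39 and 23 tags in CR1 and CR2, with summits 262 bp apart. No full-medium peak overlapped either region. Another region close by, 13.8 kb past the 3′ end (hg19 chr17:63510294-63510980), was listed in 3 libraries, with 44 and 33 tags in CR1 and CR2 and 39 tags in FM1, with the 3 summits within 5 bp, and no listed peak in FM2. At the 3′ end of the gene, 32.6 kb in (hg19 chr17:63524951-63525682), a merged region had 17 tags in CR2, no listed peak in CR1, and 24 and 26 tags in FM1 and FM2. There the CR2 and FM2 peaks share no base, the local background was 3.72 times the genome background in CR2, against 5.31 in FM1 and 5.17 in FM2, and the fold enrichments were close, at 3.58 in CR2, against 3.63 and 3.46 in FM1 and FM2. Upstream of the start, a region at 3.8 kb was listed in CR1 with 16 tags and in FM2 with 14 tags, and one at 2.1 kb in CR2 with 19 tags.

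RNF43 held the highest peak of the 7 genes. The common region at its inner start, 14.7 kb from the 5′ end (hg19 chr17:56479470-56480638), had 50 and 40 tags in CR1 and CR2, against 55 and 43 tags in FM1 and FM2. The 4 main summits lay within 11 bp. The highest library was FM1 and the lowest, over background, FM2, so the full-medium libraries enclosed the cystine-restricted ones. The means over background were 37.7 ± 1.1 under cystine restriction and 41.2 ± 12.1 in full medium (SD, n = 2 each). The log2 change was −0.095 (SE 0.22, limma adjusted p = 0.73), 0.63 below the shift of all common regions, and 5.09% of these lie at or below it. With each library centred on its own median it passed as lower, −0.66 with a limma adjusted p of 0.020. Without FM1 the change before centring was 0.21. Among all common regions this one stood at percentiles 68.6 and 69.98 by pileup in CR1 and CR2, against 90.3 and 83.3 in FM1 and FM2. A smaller second peak of the region, about 15.3 kb from the 5′ end, was listed in CR1 with 38 tags and in FM1 with 28 tags.

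The region at 37.9 kb (hg19 chr17:56456467-56457127) rose. It had 32 and 26 tags in CR1 and CR2, against 18 and 18 tags in FM1 and FM2, with the 4 summits again within 11 bp. Both cystine-restricted libraries were above both full-medium libraries, at 24.3 ± 0.47 and 14.96 ± 1.8 times background (SD, n = 2 each). The log2 change was 0.71 (SE 0.27, limma adjusted p = 0.034), 0.17 above the shift of all common regions. The call was lost with fold enrichment in place of the pileup (0.48, limma adjusted p = 0.152), with summed peaks (0.71, adjusted p = 0.108) and with each library centred on its own median (0.14, adjusted p = 0.81). Without CR1, CR2 or FM2 the log2 changes were 0.69, 0.73 and 0.58, with limma adjusted p of 0.169, 0.121 and 0.148.

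The gained region of RNF43, 2.7 kb inside the gene (hg19 chr17:56491794-56492271), had 25 and 16 tags in CR1 and CR2, with summits 1 bp apart and a fold enrichment of 8.07 and 6.20, and no listed peak in full medium. A region at 25.8 kb (hg19 chr17:56468601-56469615) had 18 and 14 tags in CR1 and CR2, 18 tags in FM1 and no listed peak in FM2. Most of the regions of RNF43, 7 of 11, were in 1 library, with 12 to 21 tags. One of these, in CR1 with 16 tags, spans the 3′ end of RNF43, where by distance from that end the RefSeq promoter window of SUPT4H1, a transcription elongation factor gene, begins.

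SOX9 had its common region at its 5′ end (hg19 chr17:70116043-70117168), while those of the other 4 genes that had any were 14.7 kb or more from theirs. Each library had a summit 100 to 115 bp upstream of the start: 45 and 24 tags in CR1 and CR2, against 22 and 16 tags in FM1 and FM2. CR2 had a second summit of 25 tags 564 bp upstream, and FM2 one of 12 tags 983 bp upstream. By the highest peak of each library the level was 28.9 ± 8.2 under cystine restriction and 16.0 ± 5.5 in full medium (SD, n = 2 each), and the media did not overlap. The log2 change was 0.86 (SE 0.28, limma adjusted p = 0.012), 0.33 above the shift of all common regions. Without CR1 the change was 0.57 and without FM2 it was 0.51, with limma adjusted p of 0.256 and 0.178. The local background was also higher under cystine restriction, at 4.61 and 3.999 times the genome background in CR1 and CR2, against 3.02 and 2.57 times in full-medium libraries, and with fold enrichment, which divides by it, the change was 0.32 with a limma adjusted p of 0.41. With each library centred on its own median it was 0.30, with a limma adjusted p of 0.55. The part of the local background in this result was not tested.

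Past the 3′ end of SOX9, a region at 19.4 kb (hg19 chr17:70141606-70142379) was listed in CR1 with 12 tags, in FM1 and FM2 with 12 and 16 tags, and not in CR2. A region 0.8 kb past the end was in CR1 alone with 15 tags.

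CCND1 had its common region 3.7 kb past the 3′ end (hg19 chr11:69472430-69473112). Its pileups were 35 and 28 tags in CR1 and CR2, against 27 and 23 tags in FM1 and FM2. Over background both cystine-restricted libraries were above both full-medium libraries, at 26.4 ± 0.80 and 20.9 ± 4.9 (SD, n = 2 each), and the log2 change of 0.36 (SE 0.26) had a limma adjusted p of 0.25. It was 0.11 without FM2 and 0.597 without FM1, neither past the threshold. The 4 summits spread over 404 bp, and by distance from the ends of CCND1 the RefSeq promoter window of LOC124902704 lies in this region, with the CR2 and FM2 summits inside it and the CR1 and FM1 summits outside. The gained region of the gene was about 3.0 kb upstream (hg19 chr11:69452873-69453244), with 20 and 16 tags in CR1 and CR2, no listed peak in full medium, and summits 264 bp apart. The other 4 regions were in 1 library each, 2 in CR1 with 24 and 20 tags and 2 in FM2 with 14 and 21 tags, and 3 of these 4 lay between the 3′ end and the common region.

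ASCL2 had 1 weak region inside the gene, 1.2 kb from its 5′ end (hg19 chr11:2290955-2291314), in CR1 with 9 tags and a −log10 q of 3.36. No peak was listed there in the other 3 libraries. LGR5 had no listed peak in any library over its window of 187 kb. The nearest regions were common ones that ended 990.01 kb to the left of the gene and began 76.9 kb to the right (hg19 chr12:70842925-70843539 and chr12:72056995-72058409), so the gene lies in a stretch of 1213 kb without a region. Of the 44803 stretches between neighbouring regions of the genome, 239 (0.533%) are as long or longer, and the median stretch is 18.5 kb. This share counts each stretch once whatever its length, while a long stretch covers more of the genome. It is therefore not the share of the genome, or of genes, that lies in such stretches, which was not worked out. An empty window by itself is not rare: with windows of this length laid end to end along every chromosome, assembly gaps included, 38.6% of 16253 held no region.

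**Figure D4:**
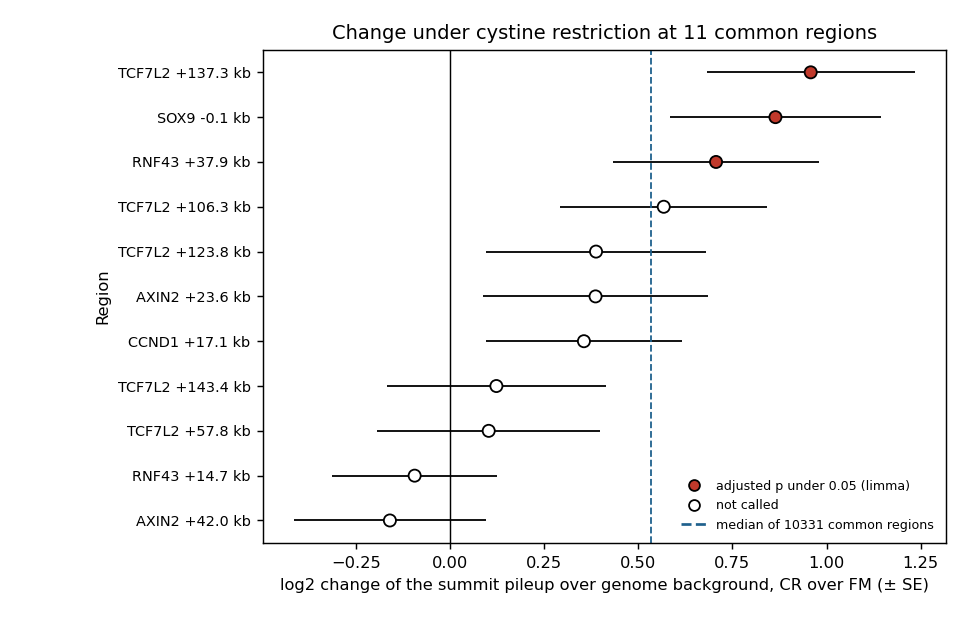
Change of the summit pileup over genome background, cystine-restricted over full medium, on the log2 scale with its SE from limma, at the 11 common regions. Filled points passed an adjusted p of 0.05, and the dashed line is the median of all 10331 common regions, 0.53. The AXIN2 region at 42.0 kb and the RNF43 region at 14.7 kb lie left of 0.

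The genes also differed in their local background, the tags expected from the 10 kb around a peak. Over the listed peaks it was 2.82 to 6.09 times the genome background at CCND1 and 2.48 to 6.59 times at AXIN2. It was 1.00 to 2.54 times at TCF7L2, 1.61 to 3.76 times at RNF43 and 1.21 to 4.61 times at SOX9. The only peak of ASCL2 had 1.00 times. These ranges include peaks of regions listed in 1 library. At all common regions of the genome the medians were 2.98 and 2.78 times in CR1 and CR2, against 2.26 and 2.14 times in FM1 and FM2. The mean over the libraries was above 4 times at 24.8% of these common regions, so high values are not rare. The same pileup therefore gave a lower fold enrichment at CCND1 and AXIN2: the common region of CCND1, with 23 to 35 tags, had folds of 3.34 to 4.28, and the TCF7L2 region at 137.3 kb, with 16 to 33 tags, had folds of 4.96 to 9.34. At the AXIN2 region at 42.0 kb the local background was 6.32 and 5.56 times in cystine-restricted libraries, against 5.73 and 5.09 times in full-medium libraries. At the common region of CCND1 it was 5.73 and 5.33 times in cystine-restricted libraries, against 5.02 and 4.70 times in full-medium libraries.

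**Figure D5:**
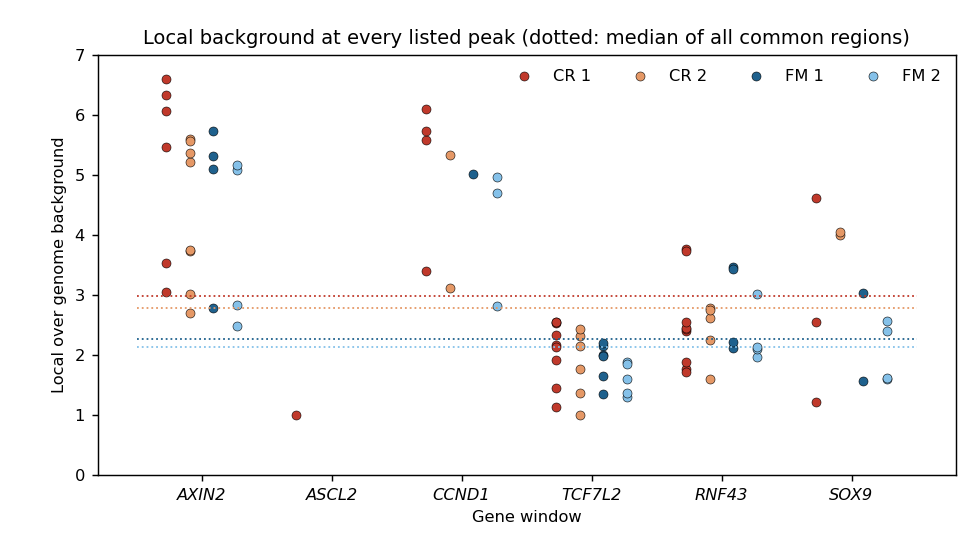
Local background over genome background at every listed peak in the windows of the 6 genes that have one, by library, with cystine-restricted (CR) left of full medium (FM). Dotted lines are the medians over all common regions of the genome in each library. AXIN2 and CCND1 reach above 6 times, and TCF7L2 stays under 2.6 times.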

How the data were processed

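The submitters' processing notes name MACS2 2.2.7.1 for peaks, BWA 0.7.17 with build hg19, fastp 0.19.7, and bcl2fastq 2.17; for MACS2, the options are not stated there. The deposited lists, one per library, give for each peak a fold enrichment (a ratio), a −log10 p, a −log10 q of at least 1.30 and a score of 10 times the −log10 q. These values are the authors' own. MACS2's fold is (pileup + 1)/(background + 1), and its p comes from a Poisson law, so both together gave a whole-number pileup that matched within 0.1% for 100% of peaks, and the genome background as the lowest background of a list. The depth is known only through that background. The lowest listed pileup was 7 tags in CR1, 6 in CR2 and 7 in both full-medium libraries.

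Peaks on chromosomes 1 to 22 and X were merged, and values are those of the highest peak of a library in a region. log2(pileup over genome background) of the 10331 regions in all 4 libraries was fitted with limma 3.58.1 (R 4.3.3, intensity trend). All regions in all 4 libraries, gained or lost were named. Members, lists and tests were chosen with earlier results of these data known. Strands of 5 genes are from general knowledge, and those of TCF7L2 and RNF43 also from RefSeq. No genome or annotation of hg19 was used, so a wider list of Wnt genes and the sequence of the regions were not analysed here. The scripts were tested on simulated data. Scripts ran on pandas 2.3.3, scipy 1.17.1 and numpy 2.4.6 in Python 3.11.15.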

Additional observations from a re-analysis of the deposited data

How the results depend on the processing

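The ratio of peak numbers kept its direction in each alternative run, from 1.24 without CR1 to 1.73 without CR2. At the same-numbered libraries (replicate block) it was 1.47. With the replicate block limma called the same number of regions, 3 higher and 0 lower, against 4575 and 47 of all 10331 common regions. The 2 numbers are too few to pair the libraries, and the deviations of same-numbered libraries had a correlation of 0.012. Of the 11 regions, 0 were higher and 2 lower with centred pileups, against 512 and 442 of all 10331 common regions. With fold enrichment 0 of the 11 were higher, against 512 of the 10331. With summed peaks 1 of the 11 was higher, against 1603 of the 10331. The median log2 change of the 11 was −0.18 with centred pileups and 0.18 with fold enrichment. Over all common regions these medians were −0.036 and 0.21. Leaving out a library gave a median log2 change of 0.25 to 0.54 at the 11 regions, against 0.44 to 0.62 over all common regions. Centring turned the direction of AXIN2 at 23.6 kb (−0.18), CCND1 (−0.21) and TCF7L2 at 57.8 (−0.47), 106.3 (−0.0012), 123.8 (−0.18) and 143.4 kb (−0.45); fold enrichment turned that of TCF7L2 at 143.4 kb (−0.0027), and summed peaks that of RNF43 at 14.7 kb (0.016). Without 1 library the ranges were −0.53 to 0.21 for AXIN2 at 42.0 kb, −0.17 to 0.37 and −0.0087 to 0.25 for TCF7L2 at 57.8 and 143.4 kb, and −0.40 to 0.21 for RNF43 at 14.7 kb. The number of regions was 21 at a −log10 q of at least 5, 23 without flanks, 23 with equal numbers of top peaks and 60 with a reciprocal overlap of 50%. Common regions numbered 5 at that −log10 q, 17 with flanks of 50 kb and 5 with reciprocal overlap. Gained regions numbered 2 at that −log10 q, 2 without flanks, 2 with equal numbers and 2 with reciprocal overlap, and lost ones 1, 0, 2 and 1. Without 1 library 4 to 14 were gained and 0 to 4 lost, fewer libraries being required. Apart from fewer libraries, the cause was not tested. At these settings the matching counts over all regions of the genome were not worked out. Whether the common, gained and lost counts differ from the background there is therefore not known.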

Other observations

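Between 20 and 50 kb from the genes lay 15 more regions. Of these, 6 were in all 4 libraries, 1 was gained, none was lost, 7 were in 1 library and 1 in 2. Over the genome 23.0% of regions were in all 4 libraries, 12.7% were gained, 0.386% were lost and 46.4% were in 1 library. LGR5 and ASCL2 had none at these distances, and CCND1 had the most, 5. The highest of the 15 was a common region 33.8 kb past the 3′ end of CCND1 (hg19 chr11:69503082-69503780), with 53 and 33 tags in CR1 and CR2, against 21 and 24 tags in FM1 and FM2. Over the genome background these are 40.8 and 30.4 in cystine-restricted libraries, against 18.98 and 18.2 in full-medium libraries, and the media did not overlap. At 72.8% of all common regions both cystine-restricted libraries were above both full-medium libraries, and the median log2 change of all was 0.53. A second common region 42.4 kb past the 3′ end (hg19 chr11:69511618-69512416) had 22 and 20 tags in cystine-restricted libraries, against 10 and 13 tags in full-medium libraries. The gained region, 49.2 kb past the 3′ end (hg19 chr11:69518433-69519086), had 15 and 17 tags in cystine-restricted libraries and no listed peak in full medium. At AXIN2 the pattern was otherwise: a common region 26.0 kb upstream of its 5′ end (hg19 chr17:63583776-63584791) had 37 and 21 tags in cystine-restricted libraries, against 26 and 28 tags in full-medium libraries, and the media overlapped. Over the genome background the media also overlapped at common regions of AXIN2 (hg19 chr17:63496043-63496512) and SOX9 (hg19 chr17:70147724-70148337). At the common region of RNF43 (hg19 chr17:56524550-56525104) they did not. It stood at 11.6 and 9.2 in cystine-restricted libraries, against 9.0 and 7.6 in full-medium libraries. These regions were chosen after the data were seen, and no test is given for them.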
